A study of Mus musculus with 42 samples.

Results

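Natural killer (NK) cell receptors and T-box factors are described here across 42 MC38 tumors by the 8 genes Ncr1, Klrb1c, Klrk1, Klrd1, Klrc1, Klre1, Eomes and Tbx21. They were selected by name, with earlier results of these tumors known, and are 8 of the 26811 genes counted. All 8 are among the 16932 genes that passed the filter on low counts. MC38 is a mouse colon carcinoma line, and its cells were injected under the skin of female CC75×B6 mice, the F1 hybrids of the strains CC075/UncJ and C57BL/6J, at 8 to 12 weeks of age. The tumors fall into 5 groups: isotype control (n = 5), aPD1 (n = 6), aPD1 + aGMCSF (n = 9), aPD1 + aIL2RB (n = 11) and aPD1 + aGMCSF + aIL2RB (n = 11). The blocking antibodies against GM-CSF (100 μg) and IL2RB (200 μg) were given into the peritoneum every 3 days from engraftment until tumors measured 75 to 110 mm3, and mice of the isotype control and aPD1 groups received the matching isotype antibodies. At that size all mice received 200 μg of aPD1 or its isotype once, and tumors were harvested 48 h later. All groups therefore share the host cross, the tumor line, repeated antibody injections and a harvest soon after the last injection, and no group received a blocking antibody without aPD1. The values are whole-tumor poly(A) RNA-seq counts, expressed as CPM, each count scaled by the TMM-normalized size of its library.

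NK cells are innate lymphocytes that kill without prior priming, and their survival depends on interleukin-15, which signals through IL2RB (CD122), the subunit shared by the receptors for interleukin-2 and interleukin-15. Whether an NK cell kills is set by the balance of activating and inhibitory receptors, and in mice most of the lectin-like ones are encoded side by side in the NK gene complex on chromosome 6. Among these genes, Ncr1 (the activating receptor NKp46) and Klrb1c (NK1.1) are the more restricted to NK cells and related innate lymphocytes. Klrk1 (NKG2D), Klrd1 (CD94), Klrc1 (NKG2A), Eomes and Tbx21 (T-BET) are also expressed by activated CD8 T cells. In a whole tumor, a lower level can come from fewer cells of a type or from less RNA per cell, and these cannot be told apart here.

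In GRCm38, Klrb1c (ENSMUSG00000030325) lies at chr6:128778485-128789215 on the minus strand. Klre1 (ENSMUSG00000050241) at chr6:129577905-129585827 and Klrd1 (ENSMUSG00000030165) at chr6:129591782-129598775 follow on the plus strand, and Klrk1 (ENSMUSG00000030149) at chr6:129610323-129623864 and Klrc1 (ENSMUSG00000030167) at chr6:129666015-129678973 lie beyond them on the minus strand. Ncr1 (ENSMUSG00000062524) is on another chromosome, at chr7:4337724-4345164 on the plus strand. Eomes (ENSMUSG00000032446) is at chr9:118478212-118486132 on the plus strand and Tbx21 (ENSMUSG00000001444) at chr11:97098071-97115331 on the minus strand. All 8 are protein-coding genes, and the counts sum over their exons. Exons of Klrb1c share 413 bases with the gene Gm44511 on the same strand, and those of Eomes share 118 bases with Gm33460 on the opposite strand. Whether counting used the strand is not given in the sources used here, so reads of such partners may not have been told apart.

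The promoter windows of the receptor genes are shown because most of them hold the same short motif. RefSeq windows of 300 bases, from 250 before to 50 after a start site, were at hand for 7 of the 8 genes, on GRCm38.p6. The letters AGGTGT or their reverse complement ACACCT, a core site of T-box factors, were in 0 of the 9 windows of these genes and in 13.7% of all 32851 windows. The letters TGTGGT or ACCACA, the core site of RUNX factors, were in 6 of the 9 windows of the 7 genes, from Ncr1, Klrb1c, Klrk1, Klrc1 and Klre1, and in 16.8% of all windows. The windows without them were those of Eomes and Tbx21 and the other window of Klre1, while Klrd1 had no window to search. The Ncr1 windows, which begin at bases 4337465 and 4337474, overlap and hold the same matches, so they are not separate cases. The RUNX letters were searched for after these sequences had been read, a match of 6 letters is a description and not a binding site, and a window without one says nothing about the factor. In the 4 windows printed here 5′ to 3′, capitals mark the RUNX letters. They are Ncr1 at chr7:4337465-4337764 (plus strand), Klrb1c at chr6:128788592-128788891 (minus strand), Klrk1 at chr6:129623815-129624114 (minus strand) and Klre1 at chr6:129577963-129578262 (plus strand).
Ncr1: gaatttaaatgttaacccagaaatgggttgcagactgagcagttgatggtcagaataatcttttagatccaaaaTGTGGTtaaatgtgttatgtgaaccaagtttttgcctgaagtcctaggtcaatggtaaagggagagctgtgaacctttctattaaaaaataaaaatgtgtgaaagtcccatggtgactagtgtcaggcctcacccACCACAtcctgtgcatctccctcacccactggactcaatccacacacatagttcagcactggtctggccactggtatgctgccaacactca
Klrb1c: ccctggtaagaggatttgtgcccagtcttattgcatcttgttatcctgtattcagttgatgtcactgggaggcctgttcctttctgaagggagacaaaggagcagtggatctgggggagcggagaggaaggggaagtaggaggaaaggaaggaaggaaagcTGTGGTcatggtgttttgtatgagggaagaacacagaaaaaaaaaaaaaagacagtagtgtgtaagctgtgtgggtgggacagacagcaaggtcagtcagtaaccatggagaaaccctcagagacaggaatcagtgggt
Klrk1: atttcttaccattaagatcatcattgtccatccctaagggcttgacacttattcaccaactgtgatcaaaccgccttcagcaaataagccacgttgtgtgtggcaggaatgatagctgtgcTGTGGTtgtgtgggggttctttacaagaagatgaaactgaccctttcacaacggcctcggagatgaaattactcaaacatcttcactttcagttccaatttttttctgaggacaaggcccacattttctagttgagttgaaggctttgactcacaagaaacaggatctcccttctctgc
Klre1: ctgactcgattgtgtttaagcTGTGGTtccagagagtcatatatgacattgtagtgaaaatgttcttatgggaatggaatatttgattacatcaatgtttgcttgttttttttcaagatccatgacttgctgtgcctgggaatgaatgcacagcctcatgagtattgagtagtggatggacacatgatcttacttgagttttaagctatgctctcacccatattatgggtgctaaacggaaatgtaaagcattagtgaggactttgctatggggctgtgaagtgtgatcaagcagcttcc
The match begins 176 bases before the start site in Ncr1, with another on the opposite strand 41 bases before it, 89 bases before it in Klrb1c, 129 in Klrk1 and 229 in Klre1. In Klrc1 it lies on the opposite strand, 87 bases before the start site.

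Per kilobase of exon, the level in aPD1 tumors ran from 7.50 ± 2.34 CPM (SD, n = 6) for Klrd1 and 6.87 ± 1.78 CPM for Klrc1, the partners of the CD94/NKG2A receptor, over 4.47 ± 1.18 CPM for Klrk1 to 1.73 ± 0.368 CPM for Tbx21. Klrb1c at 1.46 ± 0.644, Klre1 at 1.17 ± 0.452, Ncr1 at 1.08 ± 0.767 and Eomes at 0.816 ± 0.366 CPM per kilobase lay within 1 SD of their neighbours in this order. The tumors held between 7155486 and 24101674 counts each (median 20215382), of which rRNA genes took 1.72% to 8.55% in isotype control, 4.57% to 17.9% with aPD1 and 2.86% to 12.6% in the other groups. The lowest total belonged to aPD1 + aGMCSF + aIL2RB replicate 4. Tumors also part along their replicate numbers into a first set of 22 and a second set of 20, a division that the labels do not name. The first set is made of isotype control replicates 1 and 2, aPD1 replicates 1 to 3, aPD1 + aGMCSF replicates 1 to 5 and, for each group given aIL2RB, replicates 1 to 6.

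**Figure D1:**
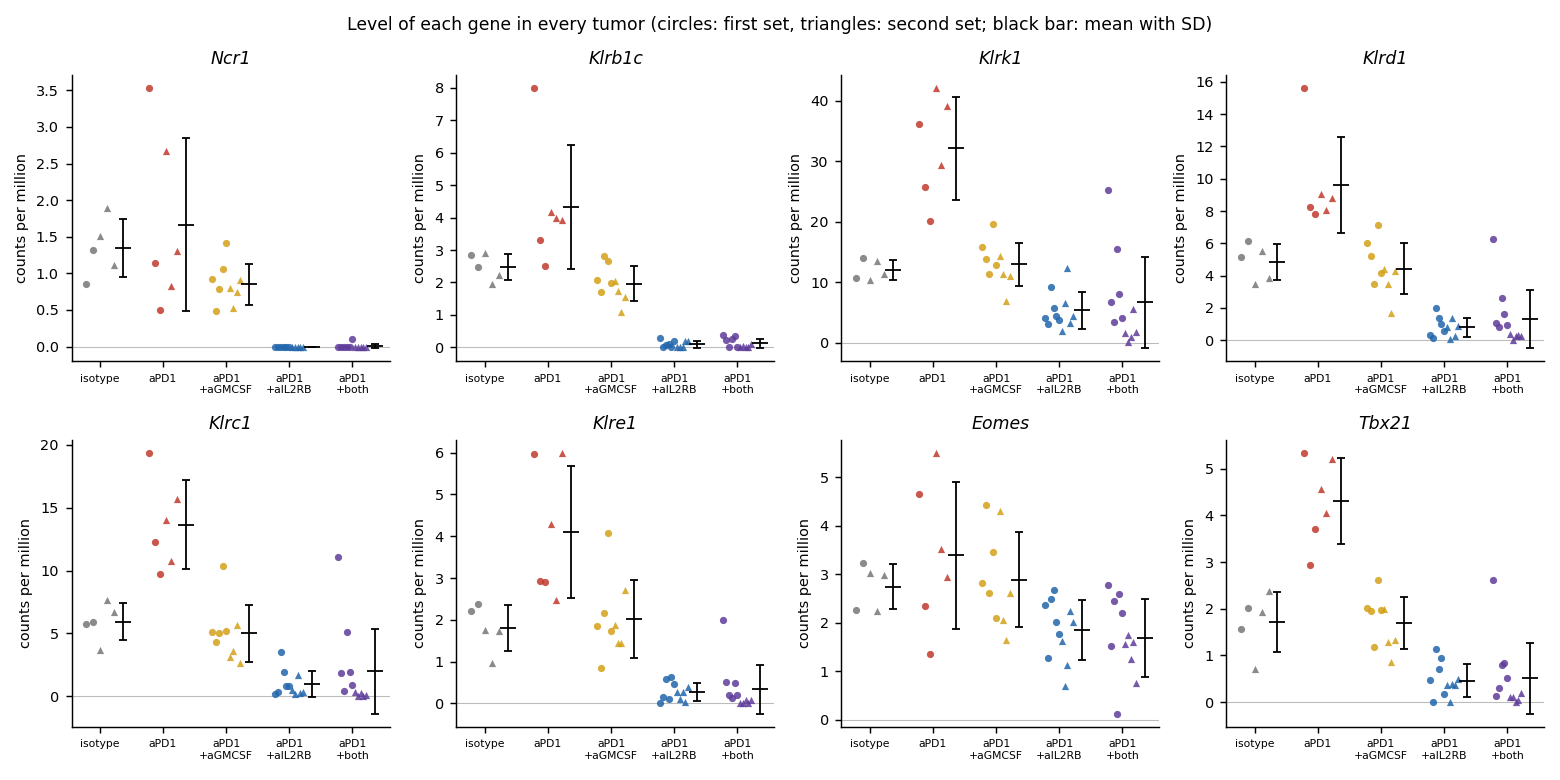
Level of each of the 8 genes in every tumor, in TMM-normalized CPM on a linear axis, by treatment group. Circles are tumors of the first set and triangles of the second, and the black bar gives the mean with SD. Ncr1 is at 0 in all 11 aPD1 + aIL2RB tumors, Eomes keeps the closest levels across groups, and 1 tumor given both blocking antibodies stands above the others in Klrk1, Klrd1, Klrc1, Klre1 and Tbx21.

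Ncr1, whose product NKp46 is an activating receptor of the immunoglobulin family, was not counted in a single aPD1 + aIL2RB tumor. The isotype control tumors had 0.850, 1.32, 1.51, 1.90 and 1.12 CPM, from 18, 29, 30, 45 and 24 counts. The aPD1 tumors had a lowest value of 0.503, a median of 1.23 and a highest of 3.54 CPM, and the aPD1 + aGMCSF tumors 0.486, 0.806 and 1.42 CPM. With aIL2RB there were 0 counts in 11 of 11 tumors, and with both blocking antibodies 2 counts, both in replicate 6, in 11 tumors. Every tumor of the 3 groups without aIL2RB thus had more Ncr1 than any tumor with it. Taking 3 counts over the group as the most that a count of 0 allows (a limit that covers counting error only), Ncr1 was at least 130-fold lower with aIL2RB than with aPD1 alone, at least 104-fold lower than in isotype control and at least 65.0-fold lower than with aGMCSF. The lower limits of a 95% exact interval, which also takes in the counting error of the reference group, were 104.8, 83.5 and 52.2. With both blocking antibodies the pooled level was lower than with aPD1 alone by a ratio of 177, with a 95% exact interval of 48.3 to 1473 for counting error.

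Klrb1c, the gene of NK1.1 in C57BL/6 mice, was the other gene close to 0 with aIL2RB. Isotype control tumors had 2.83, 2.46, 2.92, 1.94 and 2.24 CPM. The aPD1 tumors ranged from 2.51 over a median of 3.96 to 8.01 CPM, the highest being replicate 1, and aPD1 + aGMCSF tumors from 1.10 over 1.97 to 2.83 CPM. With aIL2RB the range was 0 to 0.297 CPM with a median of 0.0596 and 5 of 11 tumors at 0, and with both blocking antibodies 0 to 0.367 CPM with a median of 0.0513 and again 5 of 11 at 0. Neither group given aIL2RB overlapped any of the other 3. Mean Klrb1c was 4.32 ± 1.91 CPM (SD, n = 6) with aPD1 and 0.0954 ± 0.108 CPM (SD, n = 11) with aIL2RB, 2.21% of the aPD1 level. Estimated counts of Klrb1c were not whole (to within 0.001) in 22 of 42 tumors, so reads were divided with other genes and its level carries that uncertainty. Its neighbour Klrb1b was not whole in 36, nor was their sum in 34, and which genes share the reads was not established.

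Klrk1, the gene of NKG2D, an activating receptor for stress-induced ligands, was the most abundant of the 8 in counts. Its aPD1 tumors had 36.1, 25.7, 20.1, 42.2, 29.4 and 39.2 CPM in replicates 1 to 6, and its isotype control tumors 10.8, 14.1, 10.4, 13.5 and 11.4 CPM, so these groups did not overlap. The aPD1 + aGMCSF tumors, from 6.96 over 12.8 to 19.7 CPM, lay around the isotype control. With aIL2RB Klrk1 ranged from 1.98 over 4.40 to 12.3 CPM and was present in all 11 tumors. With both blocking antibodies the spread was wider, from 0.205 over 4.09 to 25.3 CPM, and the highest tumor, replicate 1, lay within the aPD1 range. Mean Klrk1 with aIL2RB was 5.36 ± 3.02 CPM (SD, n = 11), 16.7% of the 32.1 ± 8.48 CPM (SD, n = 6) with aPD1.

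Klrd1 and Klrc1 encode CD94 and NKG2A, which pair into an inhibitory receptor for the nonclassical class I molecule Qa-1. Klrd1 was at 5.15, 6.16, 3.48, 5.53 and 3.88 CPM in isotype control tumors, and at 15.6, 8.28, 7.79, 9.08, 8.05 and 8.81 CPM in aPD1 replicates 1 to 6. The aPD1 + aGMCSF tumors ranged from 1.70 over 4.27 to 7.11 CPM, the aPD1 + aIL2RB tumors from 0.0504 over 0.809 to 1.97 CPM and those with both from 0 over 0.833 to 6.29 CPM. All aPD1 tumors lay above all tumors of the other groups. Klrc1 had a mean of 5.94 ± 1.48 CPM (SD, n = 5) in isotype control, 13.6 ± 3.54 CPM (SD, n = 6) with aPD1, 4.99 ± 2.26 CPM (SD, n = 9) with aGMCSF, 0.950 ± 1.04 CPM (SD, n = 11) with aIL2RB and 2.00 ± 3.38 CPM (SD, n = 11) with both. In the last group single tumors spanned 0 to 11.1 CPM, while aPD1 tumors started at 9.75 CPM. Klrc1 counts were not whole in 23 of 42 tumors and those of its paralog Klrc2 in 24, but their sum was not whole in only 5, so part of their reads was shared. That sum was 6.88 ± 1.53 CPM in isotype control, 16.04 ± 4.44 CPM with aPD1, 6.11 ± 2.61 CPM with aGMCSF, 1.17 ± 1.32 CPM with aIL2RB and 2.60 ± 4.59 CPM with both, the same order of means as for Klrc1 alone. Counts of Ncr1, Klrk1, Klrd1, Klre1, Eomes and Tbx21 were whole in all 42 tumors.

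Klre1 encodes a lectin-like receptor that pairs with KLRI1 or KLRI2. It was at 1.81 ± 0.547 CPM (SD, n = 5) in isotype control, with single tumors at 2.22, 2.37, 1.76, 0.971 and 1.73 CPM, and at 4.10 ± 1.58 CPM (SD, n = 6) with aPD1, with tumors from 2.48 to 6.00 CPM. With aGMCSF it ranged from 0.850 to 4.09 CPM. With aIL2RB it ranged from 0 to 0.642 CPM with a mean of 0.278 ± 0.221 CPM (SD, n = 11), 6.77% of the aPD1 mean, and with both from 0 to 1.99 CPM with 3 of 11 tumors at 0. The tumors given both overlapped neither the aPD1 tumors nor, apart from replicate 1, the isotype control.

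The pair of T-box factors, which direct the differentiation of NK and cytotoxic T cells, parted from each other. Tbx21 was at 5.34, 2.94, 3.72, 4.56, 4.06 and 5.20 CPM in aPD1 replicates 1 to 6 and at 1.56, 2.01, 0.706, 1.94 and 2.38 CPM in isotype control, without overlap. With aGMCSF it ranged from 0.851 to 2.62 CPM around a mean of 1.69 ± 0.555 CPM (SD, n = 9), near the 1.72 ± 0.638 CPM (SD, n = 5) of isotype control. With aIL2RB it was at 0.457 ± 0.357 CPM (SD, n = 11), 10.6% of the aPD1 mean, and 2 of 11 tumors had no count. Eomes changed far less. Its tumors ranged from 1.36 over 3.24 to 5.51 CPM with aPD1, from 2.24 over 2.99 to 3.24 CPM in isotype control, from 1.65 over 2.62 to 4.43 CPM with aGMCSF, from 0.705 over 2.01 to 2.67 CPM with aIL2RB and from 0.132 over 1.61 to 2.78 CPM with both. All 5 groups overlapped in Eomes, and the aIL2RB mean of 1.85 ± 0.616 CPM (SD, n = 11) was 54.5% of the aPD1 mean of 3.39 ± 1.52 CPM (SD, n = 6).

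The design asks what aPD1 does to these genes and what blocking GM-CSF, IL2RB or both takes away. Each pair of groups was compared by edgeR's quasi-likelihood test in a fit of all 42 tumors, with p-values adjusted by the Benjamini-Hochberg method over all 16932 genes and a threshold of 0.05. Since the genes were chosen with these comparisons known, the calls place them among all genes and are no independent evidence.

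After aPD1 all 8 genes had a higher mean than in isotype control, with a median log2 fold change of 1.08, but none of the 8 was called by edgeR or by DESeq2, against 6.17% of all genes called higher. At an unadjusted p under 0.05 there were 2, a share like the 24.1% of all genes, Klrk1 at 1.42 on the log2 scale (SE 0.519, edgeR adjusted p = 0.0775) and Tbx21 at 1.32 (SE 0.609, edgeR adjusted p = 0.172). Without overlap between the groups there were 5 of 8, namely Klrk1, Klrd1, Klrc1, Klre1 and Tbx21, against 3.38% of all genes that were higher without overlap. A fit of these groups alone called the same 5, with 6.77% of all genes called higher. Ncr1 and Eomes differed least, with log2 fold changes of 0.31 (SE 0.427) and 0.30 (SE 0.345). Means of the T cell gene Cd3e and the CD8 T cell gene Cd8a were 185.5% and 223.9% of isotype control in the same tumors, and that of the pan-leukocyte gene Ptprc (CD45) was 196.1%. Of 10 monocyte and macrophage markers, 9 were called higher. The share of rRNA genes was also higher in some aPD1 tumors, and without these genes in the fit the count of the 8 called was again 0. The part of these cells and of RNA quality in the values of the 8 genes was not tested.

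Adding aGMCSF to aPD1 left the 8 genes at a median log2 fold change of -1.12 against aPD1. Of the 8, 1 was called lower, Klrk1 with -1.30 (SE 0.432, edgeR adjusted p = 0.0370), against 8.75% of all genes. At an unadjusted p under 0.05 there were 7 of 8, against 27.6% of all genes. This call was lost when any of 9 single tumors was left out, among them aPD1 replicates 1, 4, 5 and 6, and under DESeq2, which called Klrb1c in its place. Klrd1, Klrk1 and Tbx21 were lower without overlap, as were 2.20% of all genes. A fit of these groups alone called 6 of the 8, with 10.5% of all genes called lower, and a fit with the set as a term 5, with 10.3%. Compared with isotype control, no gene of the 8 was called (0 at an unadjusted p under 0.05, 0 under DESeq2), and 0% of all genes were called in either direction. The estimates for the 8 genes ran from -0.65 (SE 0.393) for Ncr1 to 0.16 (SE 0.551) for Klre1.

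Adding aIL2RB to aPD1 lowered all 8 genes, with a median log2 fold change of -3.74, and 14.5% of all genes were called lower in the same comparison. Klrb1c changed by -5.37 (SE 0.484, edgeR adjusted p = 1.23e-10), and Ncr1, at 0 in the group, is given by its limit above. Klrc1 changed by -3.88 (SE 0.622), Klre1 by -3.87 (SE 0.531), Klrd1 by -3.61 (SE 0.495), Tbx21 by -3.23 (SE 0.516) and Klrk1 by -2.59 (SE 0.420), the last with an edgeR adjusted p of 8.51e-06. Eomes changed by -0.87 (SE 0.286, edgeR adjusted p = 0.0186). Its call was lost without aPD1 replicate 1 or 4, within the first set and in a fit with the replicate number as a block. All genes but Eomes were lower without overlap, 7 of 8, against 2.99% of all genes.

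Against isotype control, aIL2RB tumors had 6 of 8 genes lower, all but Klrk1 and Eomes, where 1.51% of all genes were. Klrb1c changed by -4.57 (SE 0.499), Klre1 by -2.69 (SE 0.559), Klrc1 by -2.68 (SE 0.647) and Klrd1 by -2.62 (SE 0.515). Tbx21 changed by -1.91 (SE 0.549, edgeR adjusted p = 0.0422), a call that was lost when any of 9 tumors was left out, in a fit of these groups alone and within the first set, where that of Klrc1 was lost too. Klrk1 was at -1.17 (SE 0.450, edgeR adjusted p = 0.145) and Eomes at -0.57 (SE 0.304, edgeR adjusted p = 0.316). In a fit of these groups alone Klrk1 was called. No overlap was seen for 5 of the 8, against 0.532% of all genes. Against aPD1 + aGMCSF the same 6 genes were called lower, among 0.898% of all genes. There the call of Tbx21 was lost without any of 9 single tumors and within either set, and that of Klrc1 without aPD1 + aGMCSF replicate 4 and within the first set. Klrk1, not called there, was called in a fit of these groups alone, within the first set and when any of 3 single tumors was left out. These comparisons share the aIL2RB tumors, so their calls are not separate observations.

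**Figure D2:**
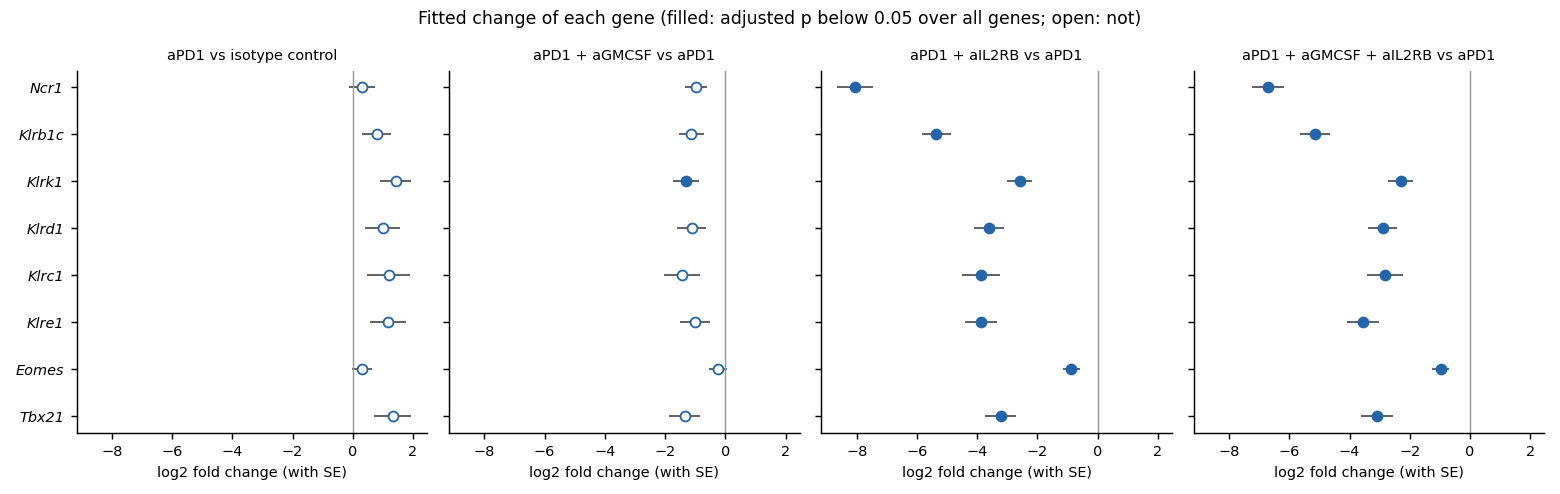
Fitted log2 fold change of each gene with its standard error in 4 comparisons, from edgeR's quasi-likelihood fit of 42 tumors. Filled points passed an adjusted p of 0.05 over all genes and open points did not. With aIL2RB, alone or with aGMCSF, all 8 genes lie below 0, with Eomes closest to it, and the fitted Ncr1 value rests on a group at 0 counts. After aPD1 alone all 8 lie above 0 and none is filled.

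With both blocking antibodies, 8 of 8 genes were called lower than with aPD1, against 14.3% of all genes called lower. Klrb1c changed by -5.15 (SE 0.484), Klre1 by -3.55 (SE 0.525), Tbx21 by -3.09 (SE 0.518), Klrd1 by -2.90 (SE 0.482), Klrc1 by -2.83 (SE 0.597), Klrk1 by -2.31 (SE 0.420) and Eomes by -0.98 (SE 0.287, edgeR adjusted p = 0.00867, lost without aPD1 replicate 4). Within the first set 6 of the 8 were called, without Klrc1 and Eomes, with 2.45% of all genes called lower. The call of Eomes was also lost in a fit with the replicate number as a block. Without overlap there were 5, against 0.827% of all genes. Compared with isotype control, 5 of 8 were lower, Ncr1, Klrb1c, Klrd1, Klre1 and Tbx21, where 4.51% of all genes were, and Ncr1 and Klrb1c did so without overlap, against 0.797%. Without isotype control replicate 4 the count was 3, in a fit of these groups alone 3, and within the first set 2, where Klrd1, Klre1 and Tbx21 were not called, against 7 within the second. Compared with aPD1 + aGMCSF the same 5 were called lower, against 1.15% of all genes, and 3 without aPD1 + aGMCSF replicate 4. The count was 2 of 8 within the first set, 2 of 7 in a fit of these groups alone and 7 of 8 within the second set. Of all genes, 0.161%, 1.35% and 4.93% were called lower in these fits. The call of Tbx21 was the least firm, lost against isotype control without any of 6 single tumors and against aPD1 + aGMCSF without any of 23. Between the groups given aIL2RB with and without aGMCSF no gene of the 8 was called (0 at an unadjusted p under 0.05 in edgeR, 0 under DESeq2), and 0.00591% of all genes were. The estimates there ran from -0.10 (SE 0.252) for Eomes to 1.05 (SE 0.587) for Klrc1 among the genes with counts in both groups.

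T cell genes moved in the same tumors. With aIL2RB, Cd3e averaged 13.6% of its aPD1 level, Cd8a 7.63%, Il2rb itself 8.67% and Ptprc 40.97%. All 10 T cell marker genes fixed as a list were called lower than with aPD1, against 14.5% of all genes. The summed level of the list was 76.2 to 153.6 CPM with aPD1, 44.0 to 71.6 in isotype control, 36.4 to 75.6 with aGMCSF, 11.3 to 49.8 with aIL2RB and 8.88 to 94.9 with both. No gene of this list was at 0 throughout any group, and its part in the decrease of the 8 genes was not tested. To set the 8 genes beside the T cell signal, their counts were divided by the summed counts of Cd3d, Cd3e and Cd3g in the same tumor, without a test. Those CD3 counts were 294 to 828 per tumor with aPD1 and 21 to 161 with aIL2RB, so ratios of single aIL2RB tumors are coarse.

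Per 100 CD3 counts pooled over each group, Ncr1 had 8.68 in isotype control, 5.57 with aPD1, 6.56 with aGMCSF, 0 with aIL2RB and 0.180 with both. Klrb1c had 15.8, 13.9 and 15.5 in the 3 groups without aIL2RB and 2.87 and 2.16 in those with it. These genes had the largest decrease in ratio of the 8. Klre1 had 13.8 with aPD1 and 7.86 with aIL2RB, Klrd1 31.3 and 21.9, and Klrc1 45.1 and 25.3, with single tumors overlapping for all 3 genes. Tbx21 had 14.3 with aPD1 and 12.97 with aIL2RB, while its mean log2 ratio over tumors was -2.76 ± 0.21 (SD, n = 6) and -3.30 ± 1.28 (SD, n = 11). Klrk1 had 77.6 in isotype control, 108 with aPD1, 101 with aGMCSF and 150 with aIL2RB, where single tumors reached 89.9 to 629.

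Eomes, like Klrk1, had a higher pooled ratio with aIL2RB than with aPD1. Its values were 11.3 per 100 CD3 counts with aPD1, 17.6 in isotype control, 22.3 with aGMCSF, 53.2 with aIL2RB and 33.3 with both. The mean log2 ratio of Eomes was -3.21 ± 0.58 (SD, n = 6) with aPD1 and -0.75 ± 0.73 (SD, n = 11) with aIL2RB. The lowest aIL2RB tumor, at 26.1 per 100, lay above the highest aPD1 tumor, at 16.9. With both blocking antibodies, Eomes ranged from 1.54 to 425 per 100, and the CD3 counts of single tumors went down to 8. With the summed counts of Cd8a and Cd8b1 in place of the CD3 genes, the difference in log2 ratio between aIL2RB and aPD1 was 3.27 for Eomes, 1.38 for Klrk1 and 0.07 for Klrd1.

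**Figure D3:**
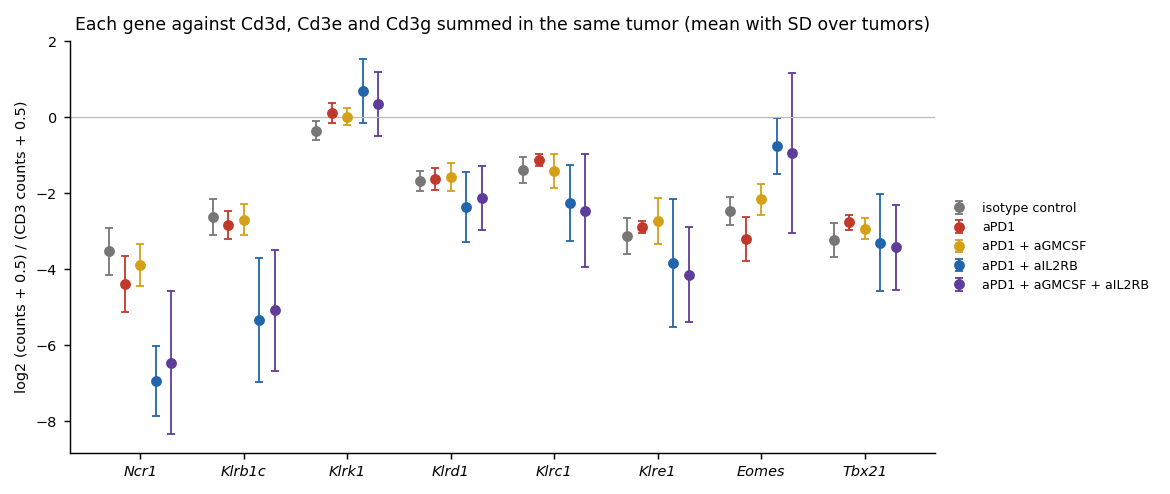
Log2 ratio of each gene to the summed counts of Cd3d, Cd3e and Cd3g in the same tumor, 0.5 added to both counts, as the mean with SD over the tumors of each group. With aIL2RB the Ncr1 and Klrb1c ratios lie below those of the groups without it, the Eomes ratio lies above them, and the mean of Tbx21 is -2.76 with aPD1 and -3.30 with aIL2RB. The low end of the Ncr1 ratio is set by the 0.5 added to a count of 0.

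The tumors were also compared between the sets, a contrast that the rule for the genes does not name, although its results over all genes were known as well. With treatment in the model, Klrd1 differed in the second set by -0.90 on the log2 scale (SE 0.295, edgeR adjusted p = 0.0204) and Klrc1 by -1.13 (SE 0.383, edgeR adjusted p = 0.0255), 2 of 8 genes, the same share as the 25.1% of all genes that differed between the sets in either direction. In the tumors given both blocking antibodies Klrk1 was at 25.3, 6.81, 3.43, 15.5, 8.03 and 4.09 CPM in replicates 1 to 6 of the first set, and at 1.56, 0.205, 0.935, 5.56 and 1.84 CPM in replicates 7 to 11 of the second. Klrc1 averaged 3.56 ± 4.05 CPM (SD, n = 6) in the first and 0.123 ± 0.134 CPM (SD, n = 5) in the second set, Klrd1 2.23 ± 2.10 and 0.235 ± 0.139 CPM, Klre1 0.588 ± 0.706 and 0.0366 ± 0.0502 CPM, and Tbx21 0.865 ± 0.902 and 0.0926 ± 0.0711 CPM. In CPM the sets overlapped in Klrk1, Tbx21, Klrb1c and Eomes and did not in Klrd1, Klrc1 and Klre1. For Klre1 the lowest first-set value, 0.132 CPM, came from replicate 4, the tumor with the lowest total. The highest second-set value was 0.0942 CPM, so this parting rests on very few counts. How many of all genes part in this way was not counted, so it does not set these genes apart from others. With aIL2RB alone, Klrk1 averaged 5.07 ± 2.20 CPM in the first and 5.72 ± 4.05 CPM in the second set, Klrd1 0.887 ± 0.693 and 0.682 ± 0.523 CPM, and Klrc1 1.25 ± 1.27 and 0.588 ± 0.632 CPM.

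The interaction of set and treatment was fitted for this difference. The sets were known from earlier results of these same tumors, so its p-values are no independent evidence. The change from aPD1 to both blocking antibodies was more negative in the second set for Klrc1 by -4.74 (SE 1.12, edgeR adjusted p = 0.00652), for Klrk1 by -2.80 (SE 0.726, edgeR adjusted p = 0.0118), for Klre1 by -3.87 (SE 1.08, edgeR adjusted p = 0.0192), for Klrd1 by -2.92 (SE 0.856, edgeR adjusted p = 0.0254) and for Tbx21 by -3.36 (SE 0.997, edgeR adjusted p = 0.0274). These are 5 of 8 genes, where 6.55% of all genes were called in that direction. Klrc1 and Klrk1 were called in each of the 42 fits that left out 1 tumor. The count was 2 without aPD1 replicate 2 or without replicate 1 of the tumors given both, and 3 without aPD1 replicate 3, 4 or 6. Klrb1c, at -2.25 (SE 1.09, edgeR adjusted p = 0.202), and Eomes, at -1.08 (SE 0.576, edgeR adjusted p = 0.252), were not called. Against isotype control Klrc1 was called, among 0.685% of all genes, as it was against aPD1 + aGMCSF, among 0.709%, and Klrk1 was called against aPD1 + aIL2RB, among 1.67%. Against aPD1 + aIL2RB Klrd1, at -2.86 (SE 0.839, edgeR adjusted p = 0.0609), and Klrc1, at -3.74 (SE 1.13, edgeR adjusted p = 0.0690), were not called. Each of these last calls was lost when single tumors were left out. The summed T cell markers of the tumors given both were 26.9 to 94.9 CPM in the first set and 8.88 to 17.03 CPM in the second, and what set the sets apart was not tested.

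**Figure D4:**
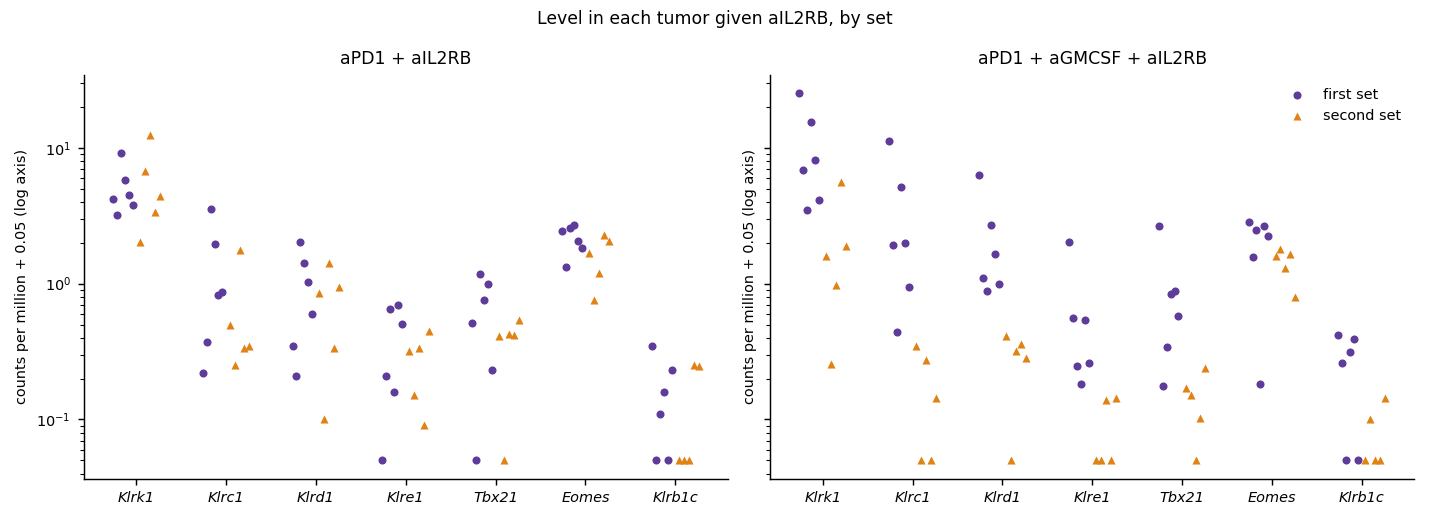
Level of 7 genes in each of the 22 tumors given aIL2RB, without aGMCSF at left and with it at right, on a log axis of CPM with 0.05 added so that 0 can be drawn. Circles are first-set and triangles second-set tumors. At right the second-set tumors lie below most first-set tumors for Klrk1, Klrc1, Klrd1, Klre1 and Tbx21, while at left the sets mix in Klrk1. Ncr1 is not drawn, since 21 of the 22 tumors have no count.

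The partners and neighbours of the 8 genes were taken from fixed lists, the members left out, and are given by counts and medians beside the median log2 fold change of all genes, which was 0.00 with aIL2RB. Of all genes, 14.5% were called lower with aIL2RB than with aPD1. Of 10 activating receptors and adaptors, 10 were, at a median of -1.67. Among them Tyrobp, the DAP12 adaptor of NK cells and myeloid cells, was at 57.3 and 108 CPM, a log2 fold change of -0.92, and Slamf7 at 12.1 and 48.4 CPM, one of -2.01. Of 15 other lectin-like receptors of the NK gene complex that could be tested, 12 were lower, at a median of -2.37. Klra2 (Ly49B) at 44.7 CPM, Klra4 at 31.3 CPM and Klrb1b at 8.05 CPM carried most of the signal left in aIL2RB tumors, against 91.2, 35.7 and 44.9 CPM with aPD1, and Klra4 was not called (-0.19, SE 0.117, edgeR adjusted p = 0.229). Against isotype control 2 of the 15 were called lower, where 1.51% of all genes were.

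Ligands of the receptors moved less. Of 7 that could be tested, 3 were lower with aIL2RB than with aPD1, where 14.5% of all genes were, at a median of -0.52. H2-T23, which encodes the Qa-1 ligand of CD94/NKG2A, was at 61.5 CPM in isotype control, 117 CPM with aPD1 and 51.1 CPM with aIL2RB, a log2 fold change of 0.93 (SE 0.286) with aPD1 and of -1.20 (SE 0.230) when aIL2RB was added. Clec2d, a ligand of NKR-P1 receptors, changed by -0.82 and H60b, a ligand of NKG2D, by -1.27, from 0.548 to 0.220 CPM. For the IL-15 and IL-2 receptor axis 6 of 7 genes were lower at a median of -0.32, and Il2rb, the target of the antibody, changed by -3.55 (SE 0.476), from 41.9 to 3.63 CPM. Il2rg, which encodes the common gamma chain, changed by -1.47.

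Of 17 other transcription factors of NK cells, 11 were lower with aIL2RB than with aPD1 at a median of -0.33, against 14.5% of all genes. Among these factors Id2 changed by -1.01, Irf8 by -0.91 and Zeb2 by -0.33. Of 9 other T-box genes 3 were higher, as were 13% of all genes, Tbx15 by 0.46 (SE 0.0729), Tbx3 by 0.36 (SE 0.0760) and Tbx5 by 0.71 (SE 0.215). Of 8 genes known as targets of EOMES and T-BET, 7 were lower at a median of -3.20. Among them were Gzmb, the gene of granzyme B, which went from 46.1 to 3.77 CPM (log2 fold change -3.64), and Prf1, the gene of perforin, from 17.5 to 1.62 CPM (-3.47). Of 18 cytotoxic effector genes, which overlap the former list, 17 were lower at a median of -3.62.

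Marker lists of whole cell types set the range in which the 8 genes moved. Of 10 NK cell markers other than the 8, 7 were lower with aIL2RB than with aPD1, where 14.5% of all genes were, at a median of -2.43. The list of NK cell markers as a whole summed to 87.9 to 149.7 CPM with aPD1, 65.8 to 85.8 in isotype control, 38.99 to 73.3 with aIL2RB and 28.8 to 81.4 with both. In the aIL2RB tumors Ncr1 was the marker of this list at 0, and Klra7 of the lectin-like receptors was at 0 too, against 0.662 CPM with aPD1. Klra4 made up most of the sum that was left. Gzma, the gene of granzyme A, had 7.59 CPM with aPD1 and 0.0595 CPM with aIL2RB, a change of -6.83 (SE 0.526). Of 7 markers of type 1 innate lymphoid cells, a tissue-resident relative of NK cells, 5 were lower and 1, Tmem176b, higher by 0.31. Monocyte and macrophage markers were lower in 8 of 10 at a median of -0.88, with all 10 present in every group. Against isotype control 3 of the 10 NK cell markers and 4 of the 10 T cell markers were called lower with aIL2RB, where 1.51% of all genes were.

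In the other comparisons the lists moved as follows. With both blocking antibodies against aPD1, where 14.3% of all genes were lower, 10 of the 10 activating receptors and adaptors, 14 of the 15 lectin-like receptors, 4 of the 7 ligands and 17 of the 18 cytotoxic effector genes were. With aGMCSF against aPD1, where 8.75% of all genes were lower, 6 of 10, 2 of 15, 2 of 7 and 12 of 18 were, with 9 of the 10 monocyte and macrophage markers and 3 of the 10 T cell markers. After aPD1 alone, where 6.17% of all genes were higher than in isotype control, 4 of the 10 activating receptors and adaptors were, among them Slamf7 at 1.66 (SE 0.487) and Tyrobp at 0.68 (SE 0.177). Of the 7 ligands 1 was called higher, and of the 18 cytotoxic effector genes 1 was. Among the 15 lectin-like receptors, the 10 NK cell markers and the 10 T cell markers, 0 were called higher. The median log2 fold change there was 1.09 for the 15 lectin-like receptors, 0.97 for the 10 NK cell markers and 0.93 for the 10 T cell markers.

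Over the 42 tumors, with the mean of each group subtracted, the 8 genes fell into a correlated part and single genes. These values are descriptive, over tumors that share groups, sets and low counts. Klrd1 correlated with Klrc1 at r = 0.87, with Tbx21 at 0.83 and with Klrk1 at 0.79. The same genes correlated with the CD8 T cell gene Cd8a, Klrd1 at 0.90 and Klrk1 at 0.87. Klrb1c had 0.13 to 0.49 with the others, Ncr1 0.12 to 0.27 and Eomes -0.01 to 0.30. Ncr1 has a count in only 21 of 42 tumors, which limits its correlation.

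**Figure D5:**
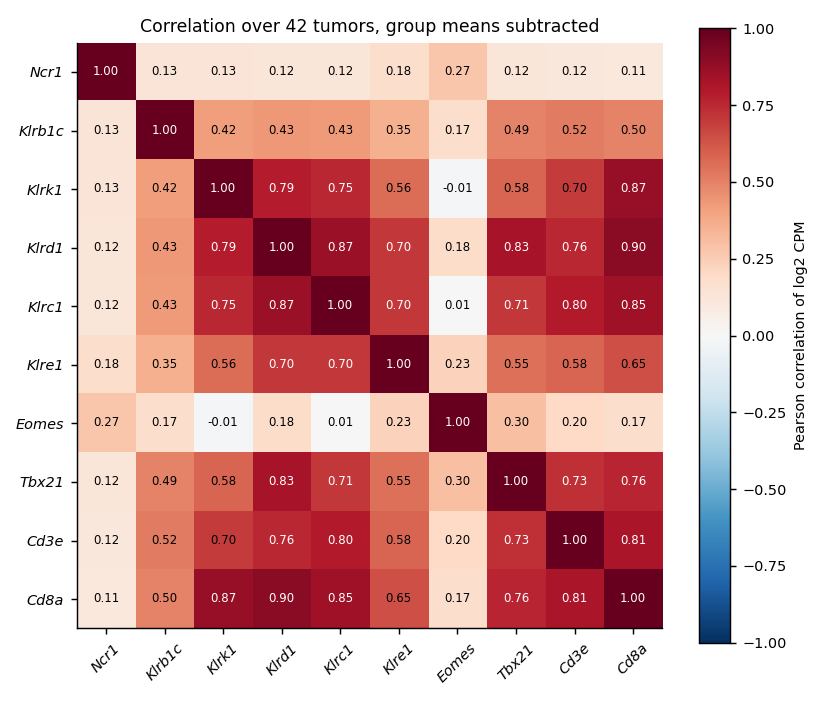
Pearson correlation of log2 CPM between the 8 genes, Cd3e and Cd8a over 42 tumors after the mean of each treatment group was subtracted, with a color scale from -1 to 1. Klrk1, Klrd1, Klrc1, Klre1 and Tbx21 form a block with Cd3e and Cd8a, with values of 0.55 to 0.90, and Ncr1 and Eomes stay at or below 0.30 with every other gene.

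Among all genes that passed the filter, the genes most like Ncr1 by this measure were F2r at 0.70, Iffo1 at 0.55, Arl10, Grik5, R74862, Gm42873, Slc36a1, Traf3ip1, Mlxip and, as the tenth, Pknox1 at 0.52. Those most like Eomes were Synj2 at 0.74, Gm13710 at 0.71, Gga2 at 0.68, Gm42648, Cercam, Marveld2, Unc5a, Tbc1d14, Dnajc16 and Gskip at 0.64. Among the 10 most like Klrd1, which was added after the correlations among the 8 had been seen, were Cd3g at 0.93, Lck at 0.92, Ptpn22 at 0.91, Trac and Cd8a at 0.90, Plbd1, Cd6, Sh2d2a and Anpep at 0.88. Of those named, Cd3g, Lck, Trac, Cd8a and Cd6 encode parts of the T cell receptor and its signaling. When the mean of each group within each set was subtracted instead, 6 of the 10 genes remained for Ncr1, 6 for Eomes and 7 for Klrd1, and with a prior count of 0.5 in place of 2 the numbers were 6, 4 and 8.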

How the data were processed

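Whole-tumor poly(A) RNA was sequenced in paired ends from 42 tumors. Per the labels and the methods, the authors aligned reads with Bowtie 1.2.3 to transcriptomes of the Collaborative Cross founder strains built on GRCm38 and deposited expected counts summed per gene, of which 15.2% are not whole. Here they were rounded to whole counts. Ensembl identifiers were matched to symbols (26629 of 26811) with a GENCODE annotation of GRCm38, which also gave positions. The 8 genes and all gene lists were chosen with earlier results of these data known.

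Genes were filtered by filterByExpr (minimum count 10, minimum total 15), normalized by TMM and tested in edgeR 4.0.16 (R 4.3.3) with a quasi-likelihood fit of 5 groups over 42 tumors, with Benjamini-Hochberg adjustment within each comparison at 0.05. A standard error is the log2 fold change divided by the square root of its F statistic. The set term and the interaction of set and treatment were fitted in the same way. A test that had been planned for the CD3 ratios was not reported, since the choice of genes used the same contrasts. Correlations used log2 CPM with a prior count of 2. DESeq2 1.42.0, other filters and scalings, and fits without each tumor were alternatives. Besides the 8 genes, Cd3e, Cd8a, Il2rb and Ptprc were to be named, up to 4 called genes of each list by highest mean CPM, and the 10 genes most correlated with Ncr1 and with Eomes. Fewer genes were printed, and Klrd1's correlates, Klrc2, Klra4 and Klra7 were named after values were seen. One of Klrd1's correlates is not reported here. On simulated counts of the aIL2RB comparison (16711 genes), 68 of 100 raised and 73 of 100 lowered 2-fold changes were recovered, with 4 unchanged genes called. Over 171 pairs of tumors within groups, counts differed by a chi-square of 5.64 to 147 per degree of freedom, so no tumor was counted as a duplicate. Tumors are labelled as biological replicates. Other tools were Python 3.11.15, pandas 2.3.3, scipy 1.17.1 and matplotlib 3.10.9.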

Additional observations from a re-analysis of the deposited data

Results flagged for a closer look

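Within groups of 4 to 10 tumors, 3 of 24 combinations of gene and group held 1 tumor far from the others by Dixon's test, where chance gives about 1 in 20. Klrb1c in aPD1 replicate 1 was at 8.01 CPM, the next tumor being at 4.17 CPM. Klrd1 in the same tumor was at 15.6 CPM and the next at 9.08 CPM. Klrc1 in aPD1 + aGMCSF replicate 4 was at 10.3 CPM and the next at 5.66 CPM.

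The effect of both blocking antibodies differed between the sets by the interaction test in 8 of 80 combinations of gene and comparison. Against aPD1 the log2 fold change of the second set minus that of the first was -2.80 for Klrk1, -2.92 for Klrd1, -4.74 for Klrc1, -3.87 for Klre1 and -3.36 for Tbx21. For Klrc1 it was -4.82 against isotype control and -4.09 against aPD1 + aGMCSF, and for Klrk1 -2.54 against aPD1 + aIL2RB. These comparisons share the tumors given both blocking antibodies.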

How the results depend on the processing

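Over all alternatives no fold change of a called gene reversed. Of those for single genes, 3983 kept their side of the threshold, 42 gained a call, 90 lost one and 38 changed sign between values that were not called. Of the 8 genes, the number called after aPD1 was 5 with only the groups compared in the fit and 2 within the second set, against 0, and 0 to 1 without single tumors (1 without replicate 1 or 8 of the tumors given both blocking antibodies). For aGMCSF added to aPD1 it was 6 with only the groups compared, 5 with the set as a term, 0 in the first and 3 in the second set, against 1, and 0 to 4 without single tumors, with 4 when replicate 1 of the tumors given both was left out, 3 without aPD1 replicate 3, 2 without aPD1 replicate 2, and 0 without aPD1 replicate 1, 4, 5 or 6 or aPD1 + aGMCSF replicate 3, 5, 7, 8 or 9. For both antibodies against isotype control it was 3 with only the groups compared and 2 in the first set, against 5, and 3 to 7 without single tumors. Against aPD1 + aGMCSF it was 2 of the 7 genes that passed the filter there (not Ncr1) and 2 of 8, against 5, and 3 to 7. The cause of these shifts was not tested. Scaling by library size alone moved the split of all genes with aIL2RB against aPD1 from 2198 higher and 2449 lower to 3125 and 1981, with both antibodies from 2215 and 2419 to 3279 and 1879, and all 8 genes stayed called. It turned the split from 1045 and 430 to 769 and 1174 for aPD1 against isotype control and from 807 and 1482 to 1402 and 1120 for aGMCSF added to aPD1, with the counts of the 8 genes still 0 and 1. The differences between the sets that were called, against 5, 1, 1 and 1, ranged without single tumors from 2 to 5 (aPD1), 0 to 2 (isotype control), 0 to 2 (aPD1 + aGMCSF) and 0 to 3 (aPD1 + aIL2RB), so the last 3 rest on single tumors. A promoter match was found in 5 genes for RUNX letters and 0 for T-box letters. The refits of the set differences and the RUNX search were chosen after seeing the data. Requiring 10 counts in every tumor left none of the 8 genes, so it gave no value.

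With the replicate number as a block, the count for aGMCSF added to aPD1 was 0, for aIL2RB or both against aPD1 7, with the call of Eomes lost in each of the last comparisons, and for aIL2RB against isotype control 5, with that of Tbx21 lost. The Tbx21 call there was also lost with a filter on a total of 5 counts, with only the groups compared and in the first set. Tumors with equal numbers were not treated as pairs in the main fit. Same-numbered tumors of different groups correlated at -0.168 to 0.193 (67 pairs, median 0.035), and differently numbered ones at -0.364 to 0.375 (623 pairs, median -0.004). Of 42 tumors, 8 correlated best with their own number, and how many would do so by chance was not computed. Low counts limit Ncr1, Klrb1c, Klre1 and Tbx21 in tumors given aIL2RB, and CD3 counts as low as 8 limit the ratios.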

Other observations

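Markers of other cell types were called in the same comparison of aIL2RB with aPD1, where 14.5% of all genes were lower and 13% higher. Of 8 dendritic cell markers, 3 were lower, among them Xcr1, a receptor of cross-presenting dendritic cells that responds to a chemokine of NK and T cells, which went from 5.62 to 1.12 CPM, a log2 fold change of -2.33 (SE 0.419), and 1, Zbtb46, was higher at 0.34 (SE 0.0855). Of 6 fibroblast markers, 4 were lower, such as the collagen gene Col1a1 at -0.67 (SE 0.221), and 2 were higher, Dcn at 0.93 (SE 0.0822) and Pdgfra at 0.81 (SE 0.142). Of 5 neutrophil markers that could be tested, Csf3r was lower at -1.57 (SE 0.238) and Mmp9, which other cells express too, was higher at 0.97 (SE 0.182). Of 5 B cell markers, 2 were lower, Cd79b at -1.47 (SE 0.303) and Ms4a1 at -1.89 (SE 0.713). Of 6 markers of MC38 and epithelial cells, Cdh1 was lower at -1.20 (SE 0.260) and Shisal2b higher at 0.70 (SE 0.176). Their relation to the NK cell receptor genes was not tested.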
